A study of Homo sapiens with 4 samples.

Results

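Genes of glycolysis and of lactate and pyruvate handling were followed in GIST-T1 cells after transfection with a miR-34a mimic. The list held 33 genes, chosen by symbol: 2 glucose transporters, the enzymes from the hexokinases to the pyruvate kinase PKM2, the PFKFB enzymes that tune phosphofructokinase, lactate dehydrogenase, 2 lactate carriers, the pyruvate dehydrogenase kinases (PDK), 2 subunits of pyruvate dehydrogenase, and the hypoxia-inducible factor HIF1A. All 33 were among the 36337 gene names on the array, and the brightest probe of each gene over the 4 arrays was used for the comparison. GIST-T1 is a human line grown from a gastrointestinal stromal tumor. The cells (3000000 per transfection) were electroporated with 100 pmol of a mirVana miR-34a mimic (a duplex RNA made to work like the natural miRNA) or with mirVana miRNA mimic Negative Control #1, and total RNA was taken 48 h later. Each condition had 2 one-color arrays, named here miR-34a mimic 1 and 2 and negative control 1 and 2. All 4 came from a single cell line, untransfected cells were not analysed here, and the labels do not say whether the replicates were separate cultures, so that the p-values measure only the spread between these samples, which may be technical.

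Glycolysis splits glucose into pyruvate in the cytosol. Hexokinase and phosphofructokinase commit the sugar, aldolase splits it, and the steps from GAPDH to pyruvate kinase return ATP. Pyruvate is then either reduced to lactate by lactate dehydrogenase (subunits LDHA and LDHB) and exported by the monocarboxylate transporters MCT1 (SLC16A1) and MCT4 (SLC16A3), or passed to the mitochondrial pyruvate dehydrogenase complex, which the PDK enzymes switch off by phosphorylating its E1 alpha subunit (PDHA1). HIF1A, stabilized when oxygen is low, induces many of these genes. LDHA has been reported as a target of miR-34a.

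The mature miR-34a-5p sequence (RefSeq, GRCh38.p14, chr1:9151735-9151756, minus strand) is shown because the arrays compare cells given its mimic with cells given a control mimic. The capitals mark the seed, bases 2 to 8, which pairs with target mRNAs. The matching 7-mers in an mRNA are CACTGCC and, with an A after a shorter match, ACTGCCA.
miR-34a-5p: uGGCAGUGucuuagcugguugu

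These 7-mers were searched on the sense strand of the 60-base probe sequences. One of the 46 probes of the 33 genes held one of them, against 0.7% of all 50599 probes. It was the GAPDH probe, shown here as the 30 bases around the match (in capitals), the only such match among the members' probes.
GAPDH probe: tccgtgtcccaACTGCCAacgtgtcagtgt
The probes cover only a short part of each transcript, so the absence of a match in the other probes, including both LDHA probes, says only that these letters were not in those 60 bases.

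All log2 signals given here are processed signals from which the array's own 75th percentile was subtracted. Expression levels were not compared between genes, because probes differ in brightness. Where the brightness of a gene is ranked below, the rank describes its probe. Between 41.8% and 45.2% of the probes were well above background on the 4 arrays, and the test (limma with Benjamini-Hochberg adjustment) covered the 21474 probes detected (well above background) in both replicates of one or the other condition, with 16184 genes tested on their brightest probe. Of the 33 genes, 30 were tested, and each of these 30 was well above background on all 4 arrays. As a check of the mimic, PDGFRA had log2 signals of 4.48 and 4.35 on the miR-34a mimic arrays against 5.98 and 5.92 on the negative control arrays, lower by a log2 difference of -1.53 (limma, standard error 0.0755, adjusted p = 0.0947), and CCNE2, E2F5, BCL2, NOTCH1, FOXP1 and SNAI1 had differences of -1.16, -1.03, -0.76, -0.71, -0.69 and -0.65. Of 18 tested genes often studied as miR-34a targets, a list chosen with earlier results of these data known, 7 were more than 1.5-fold lower (4.79% of all tested genes were) and 0 more than 1.5-fold higher (1.96% were), while MYC, JAG1 and CD44 had higher values, with log2 differences of 0.52, 0.50 and 0.21. The GIST markers KIT, ANO1, ETV1, PRKCQ, CD34 and PDGFRA were well above background on all arrays, and of the epithelial markers KRT8, KRT18 and EPCAM were also detected, whereas CDH1 and KRT19 were not. Of the endothelial markers, PECAM1 and VWF were not well above background on any array on their brightest probes. CDH5 was well above background on the control arrays only, at -2.70 and -2.57. Their mean was 1.54-fold above the dimmest signal well above background on each mimic array, averaged over both. Undetected probes can be brighter than that floor, so this is not a lower limit of the difference. CDH5 passed the filter through the control arrays alone, so no p-value is given for it.

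All of the 30 tested glycolysis genes except SLC16A1 and SLC16A3 differed by less than 1.5-fold between the conditions. The median size of the log2 difference was 0.21, against 0.15 over all tested genes, and 30% of the members lay within 0.1 of 0, against 35.2% of all tested genes. The largest differences were a lower SLC16A1 (1.69-fold, but a log2 difference of only -0.34, under 1.5-fold, with normexp background correction) and a higher SLC16A3 (1.66-fold), the genes of 2 lactate carriers. The kinases PDK2, PDK4 and PDK1 had higher values after the mimic, and the pyruvate dehydrogenase subunits PDHA1 and PDHB had lower values, with wide intervals. The enzymes of the glycolytic chain itself stayed within 1.37-fold, the largest gap being that of PFKL. By limma, 0 of the 30 tested genes had an adjusted p under 0.05, which was also the case for 0% of all 16184 tested genes, and the smallest adjusted p of a glycolysis gene was 0.0947. For any one gene, the exact permutation test (two-sided) over 2 and 2 arrays has a smallest possible p of 0.33.

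By more than 1.5-fold, 1 of the 30 genes was lower (3.33%), against 4.79% of all tested genes, and 1 was higher (3.33%), against 1.96%. At an unadjusted p under 0.05 by limma, 9 genes were lower (30%) against 11.9% of all tested genes, and 5 were higher (16.7%) against 13%. The mimic arrays were both below the 2 control arrays for 16 genes (53.3%) against 30.6% of all tested genes, and both above them for 8 genes (26.7%) against 31.3%. The median log2 difference of the 30 genes was -0.08, against -0.00655 over all tested genes. Of the 30, 20 were lower (66.7%, GPI among them, at 0.00 after rounding) and 10 higher, against 51.3% lower among all tested genes. These values moved with the scaling between arrays, for the members and for all tested genes. After quantile normalization the members' median was -0.04, against 0.0192 over all tested genes. With that scaling 16 members were lower and 14 higher, where 46.4% of all tested genes were lower. The groups lay apart for 13 lower and 12 higher members, against 26.6% and 34.5% of all tested genes. The glycolysis genes were bright, since 74.4% of the tested genes were dimmer than the median member and 9 members were among the brightest 10% of genes, whose median log2 difference was -0.0367 with the 75th percentile and 0.0301 with quantile normalization. The part of this shift in the members' count was not tested.

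**Figure D1:**
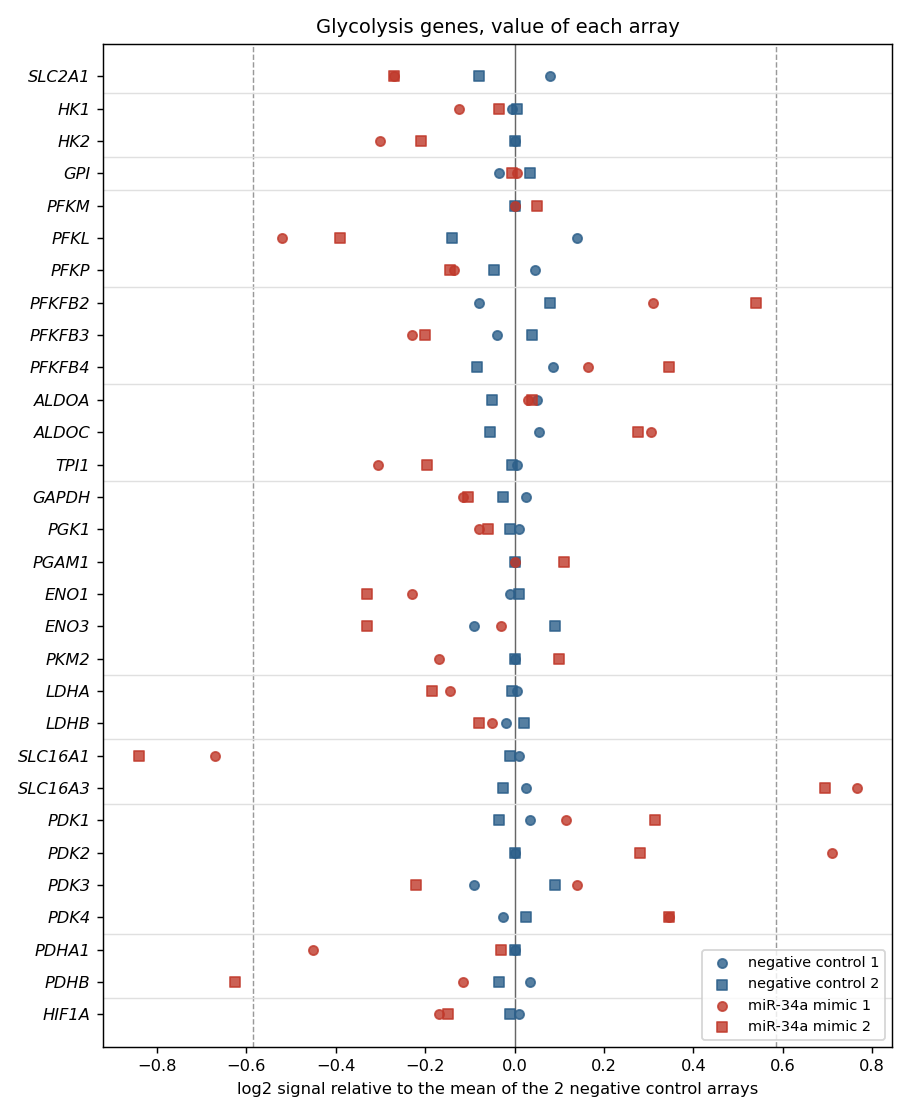
Log2 signal of each tested glycolysis gene on each array, relative to the mean of the 2 negative control arrays of that gene (x axis), with genes in pathway order and roles separated by grey lines (y axis). Circles and squares are replicates 1 and 2, red the miR-34a mimic and blue the negative control, and dashed lines mark 1.5-fold. SLC16A1 and SLC16A3 are the genes with both mimic arrays beyond the dashed lines, and single mimic arrays of PDK2 and PDHB also lie there.

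Glucose enters the cell through the GLUT transporters. SLC2A1 (GLUT1), the widely expressed one, had log2 signals of 1.24 and 1.24 with the mimic and 1.59 and 1.43 with the control. The mimic arrays lay below both controls, with a log2 difference of -0.27 (95% interval -0.50 to -0.05, adjusted p = 0.169 by limma). SLC2A3 (GLUT3) was not tested: its brighter probe was well above background only on miR-34a mimic 1, at -2.04, against -5.09 on miR-34a mimic 2 and -5.15 and -5.12 on the controls, and its second probe was not detected on any array. The values of SLC2A3 therefore rest on 1 array and give no difference between the conditions. SLC2A14, a near-identical copy of SLC2A3 whose transcripts a probe may not tell apart, was 1.55-fold higher, with a log2 difference of 0.64 (standard error 0.129, adjusted p = 0.124 by limma). Its probe was dim, at -2.43 and -2.24 with the mimic against -2.85 and -3.1 with the control.

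The hexokinases trap glucose as glucose-6-phosphate. HK1 had log2 signals of 3.66 and 3.75 with the mimic and 3.78 and 3.79 with the control, a log2 difference of -0.08 (95% interval -0.26 to 0.10). HK2, the isoform often induced in tumors, had 0.12 and 0.21 against 0.42 and 0.42, a log2 difference of -0.26 (95% interval -0.44 to -0.07, adjusted p = 0.143 by limma). The groups did not overlap for either gene, and the HK2 gap was larger than the spread between its replicates. GPI, which converts glucose-6-phosphate to fructose-6-phosphate, was at 5.94 and 5.93 against 5.90 and 5.97, with overlapping groups and a log2 difference of 0.00 (95% interval -0.18 to 0.17).

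Phosphofructokinase, the main control point of glycolysis, is a tetramer of 3 kinds of subunit. The liver-type subunit PFKL had log2 signals of 1.92 and 2.05 with the mimic against 2.58 and 2.30 with the control, a log2 difference of -0.45 (standard error 0.125, adjusted p = 0.163 by limma). The groups were apart, but the controls differed by 0.28 between themselves, and without negative control 2 the difference was -0.59. The muscle-type subunit PFKM was at 5.00 and 5.05 against 5.00 and 5.00, a log2 difference of 0.02 (95% interval -0.14 to 0.18). The platelet-type subunit PFKP had a log2 difference of -0.14 on its brighter probe and -0.08 on the second. The intervals of the 3 subunits overlapped, and the differences between the subunits were not tested.

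The PFKFB enzymes make and break fructose-2,6-bisphosphate, the strongest activator of phosphofructokinase. PFKFB2 had log2 signals of 1.87 and 2.10 with the mimic and 1.48 and 1.64 with the control, a log2 difference of 0.42 (95% interval 0.08 to 0.76, adjusted p = 0.163 by limma). PFKFB4 was at 0.15 and 0.33 against 0.07 and -0.10, a log2 difference of 0.25 (95% interval -0.06 to 0.56). Both were higher with groups apart, although the PFKFB4 interval included 0. PFKFB3, the isoform with the highest kinase activity, was at 0.20 and 0.23 against 0.39 and 0.47, a log2 difference of -0.21 (95% interval -0.39 to -0.03, adjusted p = 0.171 by limma), while its second probe was detected on negative control 2 alone.

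Aldolase cleaves fructose-1,6-bisphosphate. ALDOA, the main form in most cells, was at 6.29 and 6.30 with the mimic and 6.31 and 6.21 with the control, and the groups overlapped. ALDOC, best known from brain, was at 1.78 and 1.75 against 1.53 and 1.42, a log2 difference of 0.30 (95% interval 0.10 to 0.49, adjusted p = 0.133 by limma), with groups apart. The other product of the cleavage is converted by TPI1, which had log2 signals of 6.76 and 6.87 against 7.07 and 7.06. Its log2 difference was -0.25 on this probe and -0.31 on the second, whose target overlaps that of the first by a few bases (adjusted p = 0.153 and 0.169 by limma).

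In the payoff phase, GAPDH makes the first high-energy intermediate and PGK1 the first ATP. GAPDH, measured by 10 spots of 1 probe (chr12:6646918-6646977 in hg19), was at 7.27 and 7.28 with the mimic against 7.41 and 7.36 with the control. Its log2 difference was -0.11 (95% interval -0.27 to 0.05, adjusted p = 0.319 by limma), or 1.08-fold, and -0.02 after quantile normalization. GAPDH was the endogenous control of the study's quantitative RT-PCR. PGK1, also with 10 spots, had a log2 difference of -0.07 (95% interval -0.22 to 0.08), which became 0.02 after quantile normalization. PGAM1, the phosphoglycerate mutase of most tissues, had log2 differences of 0.06 and 0.00 on its 2 probes.

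ENO1, the common enolase, had log2 signals of 5.42 and 5.32 against 5.64 and 5.66, a log2 difference of -0.28 (95% interval -0.47 to -0.09, adjusted p = 0.138 by limma), with groups apart. The muscle enolase ENO3 overlapped between the groups, with a log2 difference of -0.18 (95% interval -0.59 to 0.23). The neuronal enolase ENO2 stayed at the background on all arrays, and the muscle mutase PGAM2 was detected on negative control 2 alone, at -2.24 against -3.47, -3.26 and -3.99, so that neither was tested. PKM2, which the array names after an isoform of the gene now called PKM, was at 4.42 and 4.69 against 4.59 and 4.59, and its log2 difference was -0.03 (95% interval -0.36 to 0.29). The payoff enzymes tested thus numbered 6, with log2 differences between -0.28 and 0.06.

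**Figure D2:**
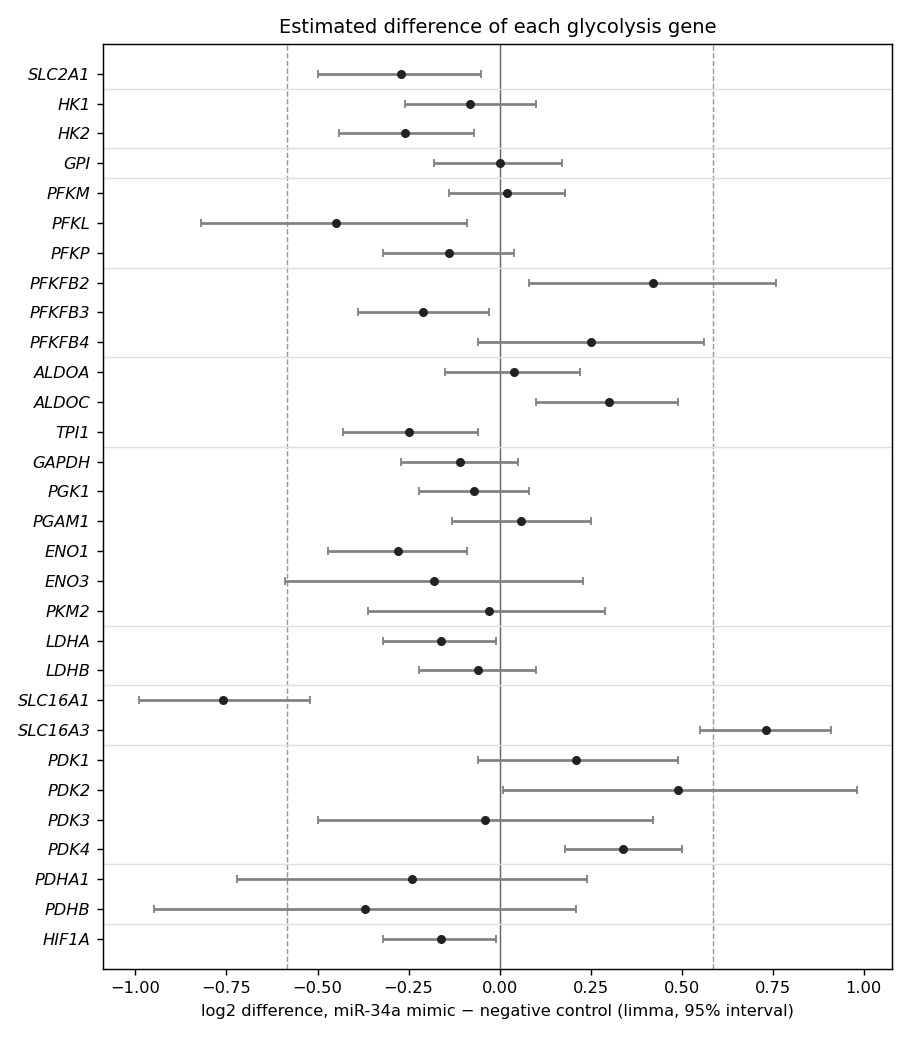
Log2 difference, miR-34a mimic minus negative control, (x axis) for each of the 30 tested glycolysis genes (y axis, pathway order), with points for limma's estimate and bars for its 95% interval over 2 arrays per condition. Dashed lines mark 1.5-fold. Most intervals lie within the dashed lines, and those of SLC16A1 (-0.99 to -0.52) and SLC16A3 (0.55 to 0.91) lie farthest from 0.

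LDHA, the subunit that favors lactate formation and a reported miR-34a target, was measured by 2 probes. The brighter one (chr11:18428789-18428848 in hg19) had log2 signals of 3.0 and 2.96 with the mimic and 3.15 and 3.14 with the control. The groups were apart with little spread, and the log2 difference was -0.16 (95% interval -0.32 to -0.01, standard error 0.0536, adjusted p = 0.195 by limma), or 1.12-fold. The second probe, which carries the LDHA name and accession but is placed by the array's annotation on chromosome 9, away from LDHA, was at 1.33 and 1.31 against 1.42 and 1.33, with a log2 difference of -0.05 (95% interval -0.23 to 0.12). On the brighter probe the lower end of the interval was -0.32, a decrease smaller than 1.5-fold. The log2 difference of LDHA lay between -0.18 and -0.11 over the alternatives tried, 1 of which was the mean over both probes.

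LDHB, the subunit that favors the reverse reaction, gave unlike values on its 2 probes. The brighter probe (chr12:21788449-21788508 in hg19), brighter than 99.2% of the tested genes, had log2 signals of 7.95 and 7.92 against 7.98 and 8.02, with a log2 difference of -0.06 (95% interval -0.22 to 0.10) that became 0.09 after quantile normalization. The second probe (chr12:21791305-21791364 in hg19), designed on the transcript NM_001174097, had 5.52 and 5.52 against 6.04 and 5.99, a log2 difference of -0.49 (95% interval -0.65 to -0.33, adjusted p = 0.0947 by limma), or 1.41-fold. The 2 intervals did not overlap. None of the spots was saturated, and the part of probe brightness or of transcript variants in this gap was not tested. Over the 7 genes with 2 tested probes the gap between the probes was 0.43 for LDHB and between 0.06 and 0.19 for the other 6.

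**Figure D3:**
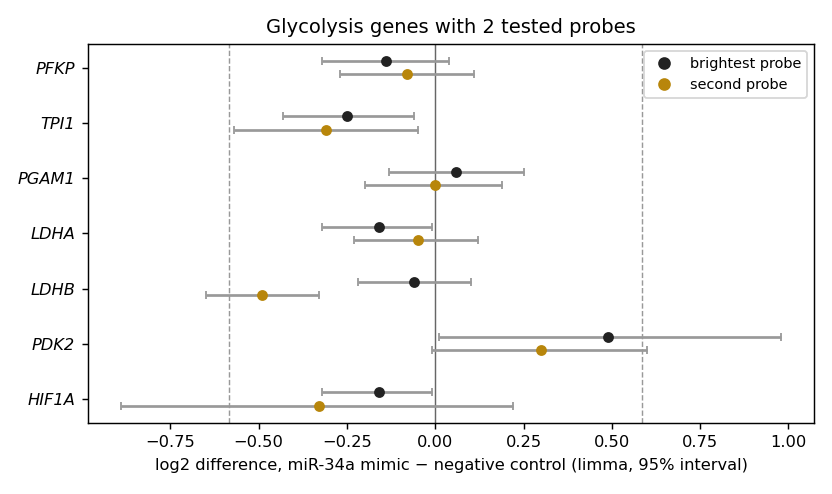
Log2 difference, miR-34a mimic minus negative control, (x axis) on the brightest probe (black) and the second probe (yellow) of the 7 glycolysis genes with 2 tested probes (y axis), with limma's 95% interval over 2 arrays per condition. The LDHB probes lie apart, at -0.06 and -0.49, whereas the intervals of the probes of each other gene overlap.

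The 2 lactate carriers had opposite values. SLC16A1 (MCT1), which carries lactate and pyruvate in either direction, had log2 signals of -1.83 and -2.0 with the mimic and -1.15 and -1.17 with the control on its only probe (chr1:113454503-113454562 in hg19). Both mimic arrays lay below both controls by far more than the replicates differed, and the log2 difference was -0.76 (standard error 0.0807, 95% interval -0.99 to -0.52, adjusted p = 0.0947 by limma). This probe was dim, with 17.9% of the tested genes dimmer, and the size of the difference depended on the background correction: with normexp it was -0.34 (adjusted p = 0.044 by limma), which is less than 1.5-fold.

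SLC16A3 (MCT4), the low-affinity carrier typical of cells that export much lactate, had log2 signals of 2.41 and 2.34 with the mimic and 1.67 and 1.62 with the control (chr17:80197288-80197347 in hg19). Both mimic arrays lay above both controls, and the log2 difference was 0.73 (standard error 0.0609, 95% interval 0.55 to 0.91, adjusted p = 0.0947 by limma). It lay between 0.64 and 0.77 over the alternatives tried. With the variance prior of limma fitted as a trend of the mean signal, the adjusted p was 0.0101 for SLC16A3 and 0.0472 for SLC16A1. BSG, the chaperone that both carriers need at the cell surface, had a log2 difference of -0.03 (standard error 0.0612), and the probes of the related carriers SLC16A7 and SLC16A8 were not well above background on any array.

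**Figure D4:**
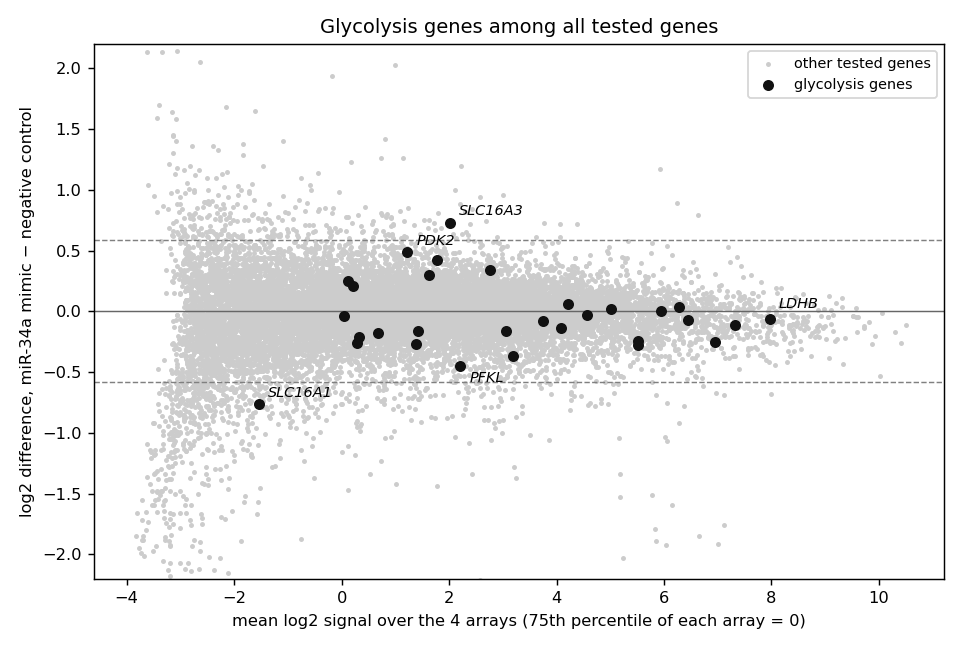
Log2 difference, miR-34a mimic minus negative control, (y axis) against the mean log2 signal over the 4 arrays (x axis) for the brightest probe of each of the 16184 tested genes (grey) and for the 30 tested glycolysis genes (black). Dashed lines mark 1.5-fold, and 27 tested genes lie outside the plotted range. SLC16A1 and SLC16A3 lie beyond the dashed lines, and most other glycolysis genes lie at the bright side within them.

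Of the 4 pyruvate dehydrogenase kinases, PDK4 had the tightest values, at 2.93 and 2.93 with the mimic and 2.56 and 2.61 with the control. Its log2 difference was 0.34 (95% interval 0.18 to 0.50, adjusted p = 0.102 by limma), or 1.27-fold. PDK2 was at 1.69 and 1.26 against 0.98 and 0.98, a log2 difference of 0.49 (95% interval 0.01 to 0.98, adjusted p = 0.201 by limma), and its second probe had 0.30 (95% interval -0.01 to 0.60). The mimic arrays of PDK2 differed by 0.42 between themselves, and the value was 0.71 without miR-34a mimic 2 and 0.28 without miR-34a mimic 1. PDK1, a HIF1A-induced kinase, was at 0.21 and 0.41 against 0.13 and 0.06, a log2 difference of 0.21 (95% interval -0.06 to 0.49). For these 3 kinases both mimic arrays lay above both controls, whereas PDK3 overlapped, with a log2 difference of -0.04 (95% interval -0.50 to 0.42).

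The substrate of the kinases is the E1 enzyme. PDHA1, its alpha subunit, had log2 signals of 5.19 and 5.61 with the mimic and 5.64 and 5.64 with the control, a log2 difference of -0.24 (95% interval -0.72 to 0.24). PDHB, the beta subunit, had 3.26 and 2.75 against 3.41 and 3.34, a log2 difference of -0.37 (95% interval -0.95 to 0.21). In each gene 1 mimic array, miR-34a mimic 1 for PDHA1 and miR-34a mimic 2 for PDHB, lay far below the controls and the other close to them. Without that array the differences were -0.03 and -0.11, so that both values rested on 1 array. The remaining parts of the complex had log2 differences of 0.09 (PDHX), 0.02 (DLAT) and 0.00 (DLD), and the phosphatases that switch it back on had 0.01 (PDP1) and 0.14 (PDP2). The subunits of the carrier that brings pyruvate into mitochondria, BRP44L (now MPC1) and BRP44 (now MPC2), had log2 differences of 0.22 and 0.19 (adjusted p = 0.194 and 0.18 by limma).

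HIF1A was measured by 2 probes. The brighter one, averaged over 10 spots, had log2 signals of 1.33 and 1.35 with the mimic and 1.51 and 1.49 with the control, a log2 difference of -0.16 (95% interval -0.32 to -0.01, adjusted p = 0.194 by limma). The second was at -1.62 and -1.13 against -1.06 and -1.02, a log2 difference of -0.33 (95% interval -0.89 to 0.22). Both were lower with groups apart, and the change on the brighter probe was 1.12-fold. HIF1A is regulated mainly through the stability of its protein, which arrays do not measure.

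Other genes around the pathway were counted from lists by symbol. Of 9 partners and regulators of HIF, 8 were lower and 1 higher, with a median log2 difference of -0.12. Among all tested genes 51.3% were lower, and the 8 included EGLN1, at -0.02, and EGLN2, at 0.00 after rounding. HIF3A, whose products can restrain the other HIF factors, was 1.58-fold lower (log2 difference -0.66, limma adjusted p = 0.111), with signals of 1.25 and 0.97 against 1.79 and 1.75. EGLN3, a prolyl hydroxylase that marks HIF for destruction, had -0.34, EPAS1 (HIF-2 alpha) had 0.33, and VHL, ARNT, ARNT2, EGLN1, EGLN2 and HIF1AN had values between -0.18 and 0.00. Of 19 tested hypoxia-induced genes outside glycolysis, 10 were higher and 9 lower, with a median of 0.06, and STC2, a secreted glycoprotein, was the only one past 1.5-fold (1.6-fold lower, with signals of -2.09 and -2.30 against -1.66 and -1.37). By limma, 0 genes of these lists had an adjusted p under 0.05, and at an unadjusted p under 0.05 there were 2 lower and 1 higher among the HIF genes and 1 lower and 3 higher among the hypoxia-induced genes, where 11.9% of all tested genes were lower and 13% higher at that threshold.

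In the citrate cycle, the pentose phosphate pathway and gluconeogenesis, 0 tested genes differed by more than 1.5-fold. Of 16 citrate cycle enzymes, 11 were higher and 5 lower, with a median log2 difference of 0.05, where 51.3% of all tested genes were lower. Of 7 tested enzymes of the pentose phosphate pathway, which branches off at glucose-6-phosphate, 3 were higher and 4 lower, with a median of -0.05, and of 6 genes of gluconeogenesis only G6PC3 was tested (log2 difference 0.17). Of 20 other tested isoforms and pyruvate-handling genes, 13 were higher and 7 lower, with a median of 0.06, and SLC2A14 was the only one past 1.5-fold. By limma, 0 genes of these lists had an adjusted p under 0.05, and unadjusted there were 3 higher citrate cycle enzymes, 1 lower and 1 higher pentose phosphate enzyme and 5 higher genes of the last list, against the same 11.9% lower and 13% higher among all tested genes. C12orf5, now TIGAR, a p53-induced enzyme that lowers fructose-2,6-bisphosphate, had a log2 difference of 0.35 (limma, adjusted p = 0.117).

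**Figure D5:**
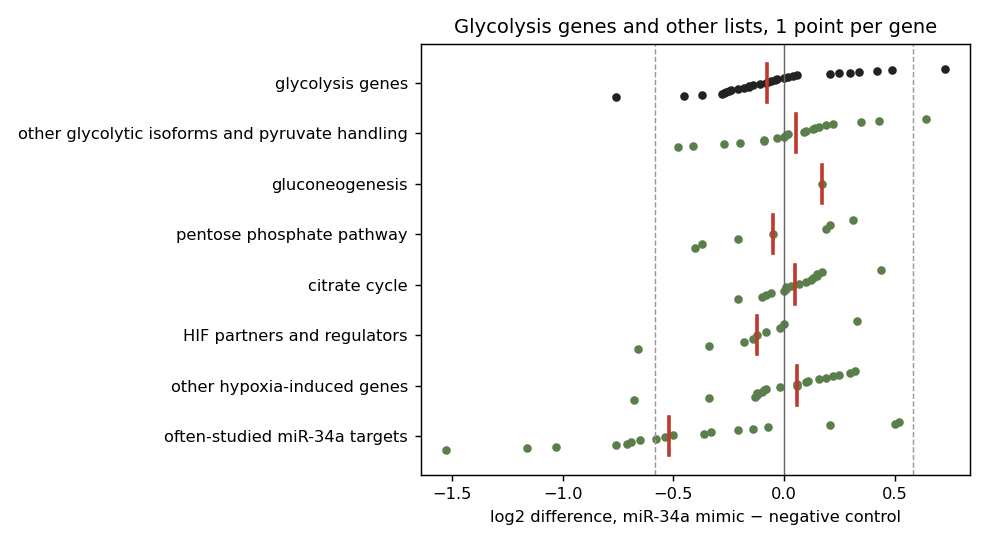
Log2 difference, miR-34a mimic minus negative control, (x axis), 1 point per tested gene on its brightest probe, for the glycolysis genes (black) and the other lists (green), with the median of each list as a red bar and 1.5-fold as dashed lines. The medians lie between -0.12 and 0.17 except that of the often-studied miR-34a targets, at -0.52.

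The promoter windows of the genes (RefSeq, GRCh38.p14, from 250 bases before to 50 after the start) were searched for ACGTG on both strands. ACGTG is a form of the core to which HIF binds, and other forms were not counted. A window was matched for 30 of the 33 genes, not for SLC2A3, SLC16A1 and PFKFB2. The motif was in 10 of the 30 (33.3%) against 21.4% of all 35116 windows. Among tested genes it was in 2 of 9 that were higher (22.2%) and in 6 of 18 that were lower (33.3%), with GPI, at 0.00 after rounding, left out of both of these counts. A match is a string of letters, not a bound site. ACGTG lies within CACGTG, the E-box that MYC and its partners also bind, in 4 of the 30 genes, LDHA, ALDOC, GAPDH and PDHB, against 7.26% of all windows. These are shown as 30 bases on the strand of the gene with ACGTG in capitals, and these genes had log2 differences of -0.16, 0.30, -0.11 and -0.37, in that order. No test was made of the motif against the differences.
LDHA, chr11:18394367-18394396: gactcccagcgcACGTGgagcagtctgccg
LDHA, chr11:18394465-18394494: agcccgactcacACGTGggttcccgcacgt
ALDOC, chr17:28577116-28577145: aagtgcccggcACGTGgtaaagggattgtg
GAPDH, chr12:6535172-6535201: ctctgcggggtcACGTGtcgcagaggagcc
PDHB, chr3:58434050-58434079: caccgaccaggcACGTGtgcccagcgtgca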

How the data were processed

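RNA from GIST-T1 cells (2 miR-34a mimic and 2 negative control samples, 100 ng labeled with Cy3) was measured on Agilent one-color arrays. The authors deposited the intensity of every spot from Agilent Feature Extraction 10.7.3.1 (10.7 in the submitters' processing notes), background-subtracted and detrended within an array but not scaled between arrays, together with flags and a table of the same processed intensity (within 0.5% of the scanner output, 0 unmapped columns). All 4 arrays lay on 1 slide and in 1 scan, so that neither could be a block.

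Control and outlier spots (293 to 424 of 58717 per array) were left out, 0 spots were saturated, and spots of a probe were averaged. The log2 processed signal minus the 75th percentile was tested with limma 3.58.1 in R 4.3.3 over 21474 probes, with Benjamini-Hochberg adjustment. The number of arrays limits the precision. Calculations were tested on simulated data.

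Of the 33 genes, 32 matched a RefSeq symbol and PKM2 a synonym. The text names every member, the genes of other lists past 1.5-fold, and the HIF and pyruvate dehydrogenase genes; MYC, JAG1, CD44, BSG, SLC16A7, SLC16A8, the pyruvate carrier, TIGAR and the marker genes were added after their values were seen. The members and lists were chosen with earlier results of these data known. Alternatives were normexp (offset 50), quantile scaling, the 75th percentile of detected probes, no or a stricter filter, the authors' table, a variance trend, the methods' t-test, a replicate block, each array left out, and the mean over probes.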

Additional observations from a re-analysis of the deposited data

How the results depend on the processing

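The count of glycolysis genes at an adjusted p under 0.05 was 0 with limma as planned and became 3 with normexp background correction (SLC16A1, SLC16A3 and PDK4), 5 with a variance trend (the same 3 with ENO1 and TPI1) and 11 with the methods' t-test at its unadjusted threshold, but 0 after Benjamini-Hochberg adjustment. Over all tested probes, the same 3 settings called 4.08%, 7.51% and 19.6%. The count lower by more than 1.5-fold (1) was 0 with normexp, 2 without a filter on dim probes, and 1 to 2 with an array left out (PDHB at -0.63 without miR-34a mimic 1, PFKL at -0.59 without negative control 2). The count higher (1) was 2 without a filter and 1 to 2 with an array left out (PDK2 at 0.71 without miR-34a mimic 2). The median log2 difference of the list (-0.08) was -0.04 with quantile normalization, -0.06 with normexp, -0.07 without a filter, -0.09 with the mean over probes, and -0.10 to -0.07 with an array left out. With an array left out, the lone array of its condition is assumed to vary like those of the other.

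The sign turned only for genes near 0: with quantile normalization GPI (0.07), LDHB (0.09), PGK1 (0.02) and PKM2 (0.00), and with an array left out GPI (-0.04 to 0.03), PFKM (0.00 to 0.05), ALDOA (-0.01 to 0.09), PKM2 (-0.16 to 0.10) and PDK3 (-0.22 to 0.14). The other members kept their direction under every alternative run. The replicate differences of the 2 conditions had a correlation of -0.0276 over the tested probes. This cannot show whether the replicate numbers paired the samples, which the labels do not say. With the replicate block 0 glycolysis genes were called, the smallest adjusted p among them was 0.222, and 1 gene was lower and 1 higher by more than 1.5-fold. Among the tested members, dim probes limit SLC16A1 most, and for SLC2A3, PGAM2 and ENO2 the signal over background did not allow a test.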
